A study of Mus musculus with 6 samples.

Results

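The bile acid and organic anion transporters of the liver were followed as 10 genes, 5 that take bile acids and other organic anions up from the blood and 5 that export to bile. The uptake genes were Slc10a1, Slco1a1, Slco1a4, Slco1b2 and Slco2b1, and the export genes were Abcb11, Abcb4, Abcc2, Abcg5 and Abcg8. They were chosen by gene symbol, and a gene was read by its probe (transcript cluster) with the highest mean over the arrays. All 10 had a probe that carried their symbol and no other, and all 10 lay above the intensity filter, among 13493 genes tested and 22180 with a probe of their own. Male C57BL/6 mice that had entered the study at 8 weeks of age were given either vehicle or Vascepa for 7 days, and both groups then had a high-fat diet for 6 weeks. Vascepa is a drug made of purified eicosapentaenoic acid, an omega-3 fatty acid of fish oil, in its ethyl ester form (icosapent ethyl). What the vehicle was is not said in the labels, and no group without the diet was analysed here. Total liver RNA was read on 6 expression arrays, 3 for each group, and the labels leave unsaid whether each array stands for its own animal, so p-values cover only the spread among these arrays, which could be technical.

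Hepatocytes take bile acids from sinusoidal blood across their basolateral membrane and pump them into the bile canaliculus on the opposite face. Bile acids that return from the gut activate the nuclear receptor FXR (Nr1h4), which raises the bile salt export pump and, through SHP (Nr0b2), restrains both bile acid synthesis and uptake. Phospholipid and cholesterol are exported beside the bile salts and form mixed micelles with them. The sterol exporter is a pair of proteins, ABCG5 and ABCG8, which work only together.

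Promoter sequence is shown for 4 members or pairs because their starts hold the letters by which this pathway is usually described, and because Abcg5 and Abcg8 share 1 short stretch. Sequences are from RefSeq (GRCm38.p6), whose promoter table matched all 10 members with 14 windows, and the 250 bases before each start were searched on both strands. The nuclear receptor half-site AGGTCA was present in 5 of the 14 windows and in 14.0% of all 32851 windows of this length. The inverted repeat of it with 1 base between (AGGTCA, any base, TGACCT), which contains the half-site and is the classical FXR element, was present in 0 of the 14 and in 0.00609% of all. With at most 1 mismatch it was present in 2 of the 14, those of Abcb11 and Slco1b2, and in 0.0791% of all. Counted from 1 at the first base of the repeat, the Abcb11 match carried T4C and began 63 bases before the start, and the Slco1b2 match carried T4A and began 88 bases before it. These matches describe letters and not binding. In the first pair of sequences, at chr2:69342617-69342866 on the minus strand and chr6:141629268-141629517 on the plus strand, capitals mark the match with 1 mismatch.
Abcb11: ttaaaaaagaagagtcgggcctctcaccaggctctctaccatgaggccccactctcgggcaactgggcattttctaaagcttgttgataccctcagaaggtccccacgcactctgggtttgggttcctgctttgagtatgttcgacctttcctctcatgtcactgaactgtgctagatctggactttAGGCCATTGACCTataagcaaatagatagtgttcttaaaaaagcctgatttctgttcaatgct
Slco1b2: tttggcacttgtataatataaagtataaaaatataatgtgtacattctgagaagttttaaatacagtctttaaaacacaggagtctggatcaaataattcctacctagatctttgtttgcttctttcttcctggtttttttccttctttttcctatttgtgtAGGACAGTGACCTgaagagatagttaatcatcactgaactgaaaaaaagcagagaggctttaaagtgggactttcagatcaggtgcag

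Slco1a1 held the half-site at 2 places, beginning 134 and 24 bases before its start, and it is shown because its group difference was the largest among the members. Its 250 bases lie at chr6:141946963-141947212 on the minus strand, with the half-sites in capitals. Abcg5 and Abcg8 are neighbours that are transcribed away from each other, and 109 bases lie between their annotated starts, at chr17:84683012-84683120 on the plus strand. Abcg8 has a further annotated start outside this stretch. The stretch between them holds the GATA motif AGATAA at 2 places, both read on the opposite strand and shown in capitals. That motif was present in 9.99% of all windows of 250 bases and in 2 of the 14 member windows, which are those of Abcg5 and Abcg8 and overlap.
Slco1a1: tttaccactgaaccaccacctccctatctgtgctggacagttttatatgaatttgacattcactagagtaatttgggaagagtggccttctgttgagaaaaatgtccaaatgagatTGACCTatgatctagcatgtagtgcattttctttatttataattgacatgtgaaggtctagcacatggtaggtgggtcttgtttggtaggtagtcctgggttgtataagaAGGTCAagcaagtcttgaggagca
Abcg5 to Abcg8: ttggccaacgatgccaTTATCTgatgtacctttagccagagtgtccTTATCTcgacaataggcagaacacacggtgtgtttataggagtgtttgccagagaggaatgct

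No transporter gene passed the test between Vascepa and vehicle livers. At an adjusted p under 0.05 (limma, Benjamini-Hochberg over all genes) 0 of the 10 members passed, where 0% of all genes passed. At an unadjusted p under 0.05 there were also 0 of 10, against 2.68% of all genes. The groups overlapped in all 10, while 8.24% of all genes had groups that did not overlap. The mean was lower in Vascepa livers for 8 members and higher for Slco1a1 and Slco1b2, beside 60.1% of all genes lower. The median log2 difference was −0.32 over the uptake genes and −0.14 over the export genes, beside −0.063 over all genes tested. These counts and medians changed with single arrays. Without Vascepa replicate 3, 2 of the 10 members were lower and 0 of the 5 export genes, beside 53.1% of all genes, and the medians were 0.065 over the uptake genes and 0.23 over the export genes. Without vehicle replicate 1, 5 members were lower, 2 of them export genes. The 95% interval of every member included 0, and the widest, that of Abcb11, ran from 0.476-fold to 1.98-fold.

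**Figure D1:**
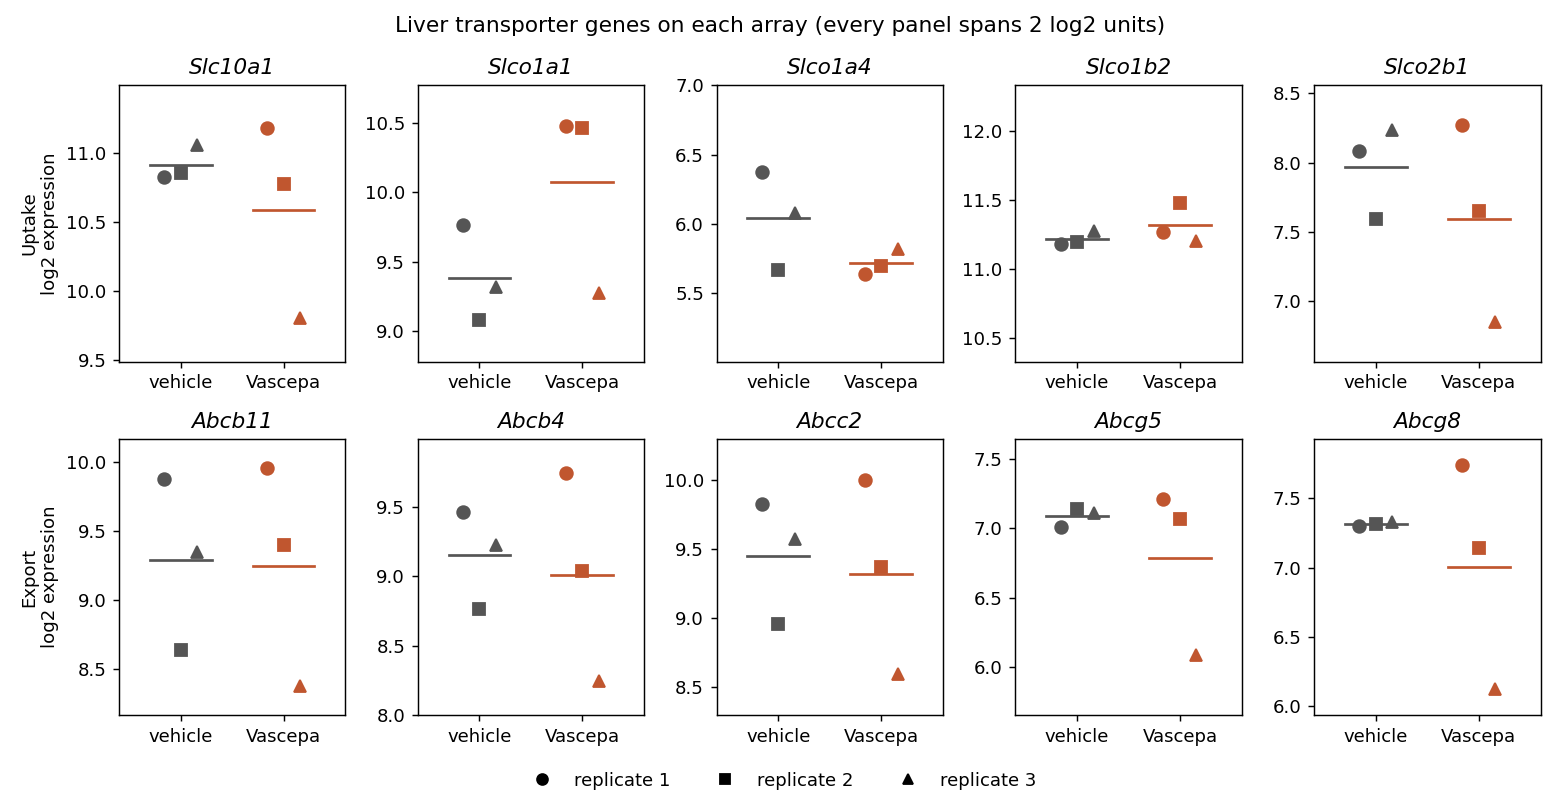
Log2 expression of the 10 transporter genes on each of the 6 arrays, with vehicle in grey, Vascepa in orange, symbols for the replicate number and a line at the group mean; every panel spans the same 2 log2 units. Vascepa replicate 3 (orange triangle) is the lowest point for Slc10a1, Slco2b1 and the 5 export genes, and Slco1b2 stays within 0.30.

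Slc10a1 encodes NTCP, the sodium-dependent carrier that takes up most conjugated bile acids. It read 10.82, 10.86 and 11.06 on vehicle replicates 1, 2 and 3 and 11.18, 10.78 and 9.80 on Vascepa replicates 1, 2 and 3, on the log2 scale. The vehicle arrays lay close together, 2 Vascepa arrays lay near them, and Vascepa replicate 3 lay far below. The difference was −0.33 ± 0.34 (SE, 95% interval −1.10 to 0.45, limma adjusted p = 0.976). Without Vascepa replicate 3 it was 0.065.

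Slco1a1 encodes OATP1A1, a sodium-independent carrier of bile acids, sulfated steroids and other organic anions, which is used far more in male than in female mouse liver. It read 9.76, 9.08 and 9.32 in vehicle livers and 10.48, 10.47 and 9.28 in Vascepa livers. Vascepa replicates 1 and 2 lay above every vehicle array, and Vascepa replicate 3 lay between vehicle replicates 2 and 3. The group mean was 1.61-fold higher with Vascepa (log2 difference 0.69 ± 0.36 SE, 95% interval −0.14 to 1.51, unadjusted p = 0.0903 and adjusted p = 0.976 by limma). Without Vascepa replicate 3 the difference was 1.09 ± 0.24, with an unadjusted p of 0.00226 and an adjusted p of 1.00 by limma, and without Vascepa replicate 1 it was 0.49. The sign was positive under all 18 alternative settings.

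Slco1a4 encodes OATP1A4, a relative with an overlapping range of substrates that is used more in female mouse liver, and its gene lies in the same cluster. It read 6.37, 5.66 and 6.08 in vehicle livers and 5.63, 5.69 and 5.82 in Vascepa livers. The 3 Vascepa values sat close together at the level of the lowest vehicle array. The difference was −0.32 ± 0.22 (SE, limma adjusted p = 0.976) and was negative under all 18 alternative settings, between −0.56 and −0.16. Slco1a1, Slco1a4 and Slco1b2 belong to 1 family and lie near each other, and cross-hybridisation between them was not tested.

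Slco1b2 encodes OATP1B2, the main hepatic carrier of unconjugated bile acids and of bilirubin conjugates. It read 11.18, 11.19 and 11.28 in vehicle livers and 11.27, 11.48 and 11.20 in Vascepa livers. The highest and the lowest of the 6 arrays were 1.23-fold apart, the narrowest range among the members. Its pooled within-group SD of 0.11 lay at percentile 5.50 of all genes tested, whereas those of the other 9 members lay between percentile 42.8 and 95.9. The difference was 0.10 ± 0.17 (SE, 95% interval −0.30 to 0.50, limma adjusted p = 0.976), the narrowest interval of the 10, which in linear terms ran from 0.814-fold to 1.41-fold.

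Slco2b1 encodes OATP2B1, a carrier of steroid sulfates and drugs that is also found outside the liver. It read 8.08, 7.59 and 8.24 in vehicle livers and 8.27, 7.65 and 6.85 in Vascepa livers. Vascepa replicate 3 was again the lowest, and vehicle replicate 2 and Vascepa replicate 2 lay close to each other, between it and the other 3 arrays. The difference was −0.38 ± 0.36 (SE, limma adjusted p = 0.976) and was −0.0090 without Vascepa replicate 3. The gene had a further, dim probe with a mean of 2.83, just above the filter level of 2.65. It read 3.49, 2.36 and 2.80 in vehicle livers and 2.67, 2.91 and 2.72 in Vascepa livers, and it lacked the low value on Vascepa replicate 3.

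Abcb11 encodes BSEP, the canalicular pump that drives bile salt secretion and bile flow. It read 9.87, 8.64 and 9.35 in vehicle livers and 9.95, 9.40 and 8.38 in Vascepa livers. The 2 groups covered nearly the same range, and vehicle replicates alone were 2.35-fold apart. The difference was −0.042 ± 0.45 (SE, 95% interval −1.07 to 0.99, limma adjusted p = 0.991). The sign was positive under 7 of the 18 alternative settings; centring each array gave −0.12 on its median over all probes and 0.059 on its median over the genes tested.

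Abcb4 encodes MDR2, the floppase that delivers phosphatidylcholine to bile. It read 9.46, 8.76 and 9.23 in vehicle livers and 9.75, 9.04 and 8.25 in Vascepa livers, with a difference of −0.14 ± 0.38 (SE, limma adjusted p = 0.977). Abcc2 encodes MRP2, which exports bilirubin glucuronides, glutathione conjugates and divalent bile acids. It read 9.82, 8.96 and 9.57 in vehicle livers and 9.999, 9.37 and 8.59 in Vascepa livers, with a difference of −0.13 ± 0.38 (SE, limma adjusted p = 0.977). For both genes Vascepa replicate 1 was the highest array, vehicle replicate 1 the next, vehicle replicate 2 the lowest but one and Vascepa replicate 3 the lowest. Without Vascepa replicate 3 the differences were 0.24 for Abcb4 and 0.23 for Abcc2, and without vehicle replicate 1 they were 0.015 and 0.057.

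Abcg5 and Abcg8 encode the partners of the sterol exporter that moves cholesterol and plant sterols into bile. Abcg5 read 7.01, 7.14 and 7.11 in vehicle livers and 7.21, 7.07 and 6.09 in Vascepa livers. Abcg8 read 7.30, 7.32 and 7.33 in vehicle livers and 7.74, 7.14 and 6.12 in Vascepa livers. In vehicle livers the pair hardly varied, with the highest array 1.10-fold and 1.02-fold above the lowest, while the readings on Vascepa replicate 3 lay at −1.001 and −1.20 from the vehicle mean. The differences were −0.30 ± 0.30 for Abcg5 and −0.31 ± 0.37 for Abcg8 (SE, limma adjusted p = 0.976 for each), and they were 0.054 and 0.13 without Vascepa replicate 3.

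**Figure D2:**
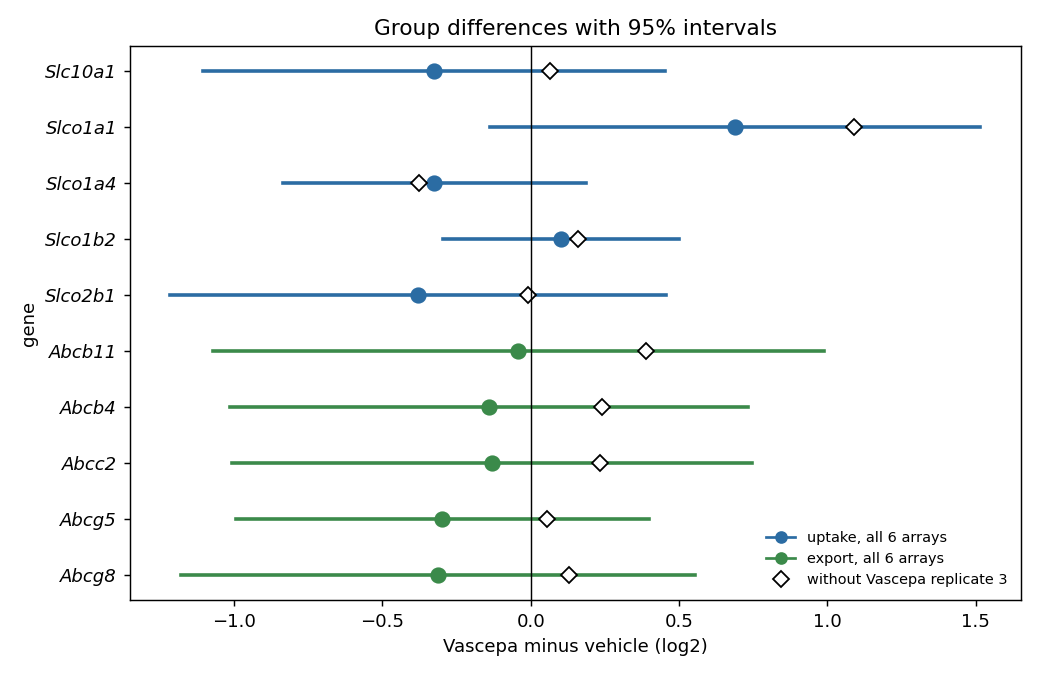
Log2 difference of Vascepa minus vehicle for the 10 genes, as filled circles with 95% intervals over all 6 arrays (uptake blue, export green) and as open diamonds without Vascepa replicate 3. Every interval crosses 0, and 6 genes (Slc10a1 and the 5 export genes) move from below 0 to above 0 when that array is left out.

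Low readings of the export genes lay mainly on Vascepa replicate 3. Vascepa replicate 3 was the lowest of the 6 arrays for 7 of the 10 members, among them all 5 export genes, beside 38.8% of all genes. The pooled within-group SD of the export genes lay between percentile 77.3 and 95.9 of all genes tested. Of the uptake genes, Slc10a1, Slco1a1 and Slco2b1 lay in that range too, at 84.7, 87.8 and 88.5, and Slco1a4 and Slco1b2 lay at 42.8 and 5.50. Relative to the vehicle mean of each gene, the median of the export genes was 0.31, −0.39 and 0.061 on vehicle replicates 1, 2 and 3. On Vascepa replicates 1, 2 and 3 it was 0.55, −0.084 and −0.91. The uptake genes had no such common low point, since Slco1a4, Slco1b2 and Slco1a1 were not lowest on that array. The uptake median was 0.11, −0.31 and 0.059 in vehicle livers and 0.26, −0.13 and −0.22 in Vascepa livers. The uptake median minus the export median was −0.20, 0.077 and −0.0027 in vehicle livers and −0.28, −0.051 and 0.68 in Vascepa livers. The difference of the 2 medians stood apart on Vascepa replicate 3, where the uptake genes were split. Slc10a1 and Slco2b1 lay there at −1.11 and −1.12, as low as the export genes. Slco1a4, Slco1a1 and Slco1b2 lay at −0.22, −0.11 and −0.012. The balance of uptake and export was not tested, since the members had been chosen with results known.

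Small nucleolar RNAs were highest on the array where the export genes were lowest. Their mean log2 level over 68 genes was 5.80, 6.69 and 6.06 in vehicle livers and 5.67, 6.82 and 7.36 in Vascepa livers, so the array highest for the exporters was the lowest for these RNAs and the reverse. With the mean level of all 97 small nucleolar RNA probes, dim ones included, as a covariate, 4 of the 10 members were lower in Vascepa livers, 3 of them uptake genes and 1 an export gene. The differences were then 0.38 for Abcb11, 0.23 for Abcb4 and 0.23 for Abcc2, and 0.96 ± 0.24 for Slco1a1 (limma adjusted p = 0.552). With the level of the 68 as covariate, 5 members were lower, since Abcg8 stood at −0.012 in place of 0.0015. The part of this RNA class in the export values was otherwise not tested. Markers of several liver cell types were low on Vascepa replicate 3. Relative to the vehicle mean, 8 stellate cell markers lay there at a median of −0.55, 11 hepatocyte markers at −0.46, 10 sinusoidal endothelial markers at −0.35, 5 bile duct cell markers at −0.19 and 11 Kupffer cell markers at −0.19, beside −0.12 over all genes tested. On the other 5 arrays the hepatocyte median was between −0.097 and 0.026. The bile duct cell median was −0.19 on vehicle replicate 2 as well, so for these markers the low value was not particular to Vascepa replicate 3. Of the 11 Kupffer cell markers, genes of the resident macrophages, 10 were lower in Vascepa livers, beside 60.1% of all genes. The groups did not overlap in 3 of them, beside 8.24% of all genes, and 3 had an unadjusted p under 0.05 by limma, beside 2.68%. Their median was lowest on Vascepa replicate 1 at −0.48. Vsig4 and Cd68 differed by −0.53 ± 0.18 and −0.54 ± 0.20 (SE, limma adjusted p = 0.976 for each). The log2 of the summed linear levels of the Kupffer cell markers was 9.98 to 10.18 in vehicle livers. It was 9.56, 9.71 and 10.07 on Vascepa replicates 1, 2 and 3, so replicate 3 lay within the vehicle range. Of the 11 hepatocyte markers 9 were lower, beside 60.1% of all genes, and the groups did not overlap in 3, beside 8.24% of all genes. Those 3 were Hpx, F2 and Apoa1, at −0.33, −0.21 and only −0.040. The part of these cell types in the transporter values was not tested. For the hepatocyte markers the log2 of the summed linear levels, in which the brightest genes weigh most, was 15.71 to 15.86 in vehicle livers. In Vascepa livers it was 15.43 to 15.86. Hpx, the plasma heme carrier hemopexin, and Serpinc1, antithrombin, differed by −0.33 ± 0.18 and −0.24 ± 0.20 (SE, limma). In whole liver, fewer cells of a type and less RNA in each of them cannot be told apart. Of 10 bile duct cell markers 5 were tested. The log2 of their summed linear levels was 6.88 to 7.15 in vehicle livers and 6.82 to 7.13 in Vascepa livers. Sox9 and Krt7, which mark bile duct cells, differed by −0.43 ± 0.34 and 0.30 ± 0.30 (SE, limma).

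**Figure D3:**
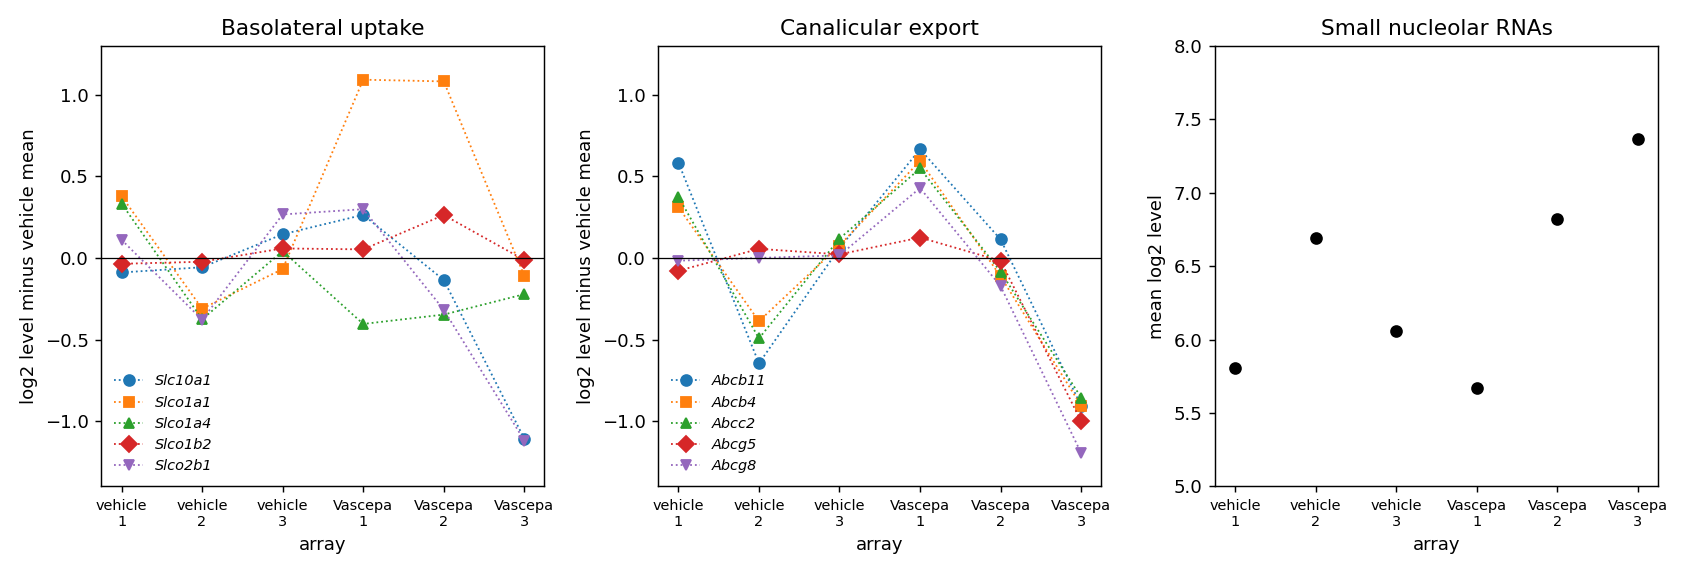
Log2 level of each uptake gene (left) and export gene (middle) minus its vehicle mean, by array, with dotted lines only joining the points of a gene, and the mean log2 level of 68 small nucleolar RNA genes (right). The export genes lie between −1.20 and −0.86 on Vascepa replicate 3, where the small nucleolar RNAs are highest at 7.36, and Slco1a1 stands at 1.09 and 1.08 on Vascepa replicates 1 and 2.

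The export genes fell into more than 1 profile over arrays. On vehicle replicate 2, Abcb11, Abcb4 and Abcc2 lay at −0.65, −0.39 and −0.49 from the vehicle mean, while Abcg5 and Abcg8 lay at 0.056 and 0.00044. Likeness was measured as the root mean square distance of profiles over the 6 arrays, each centred on its mean. The nearest member to Abcb4 was Abcc2 at a distance of 0.061, which ranked 11 among the 13492 other genes, and from Abcc2 back to Abcb4 the rank was 7. The nearest member to Abcb11 was Abcc2 at 0.14, with a rank of 43. For both sterol exporter genes the nearest member was an uptake gene, Slc10a1, at 0.10 with a rank of 20 for Abcg8 and at 0.11 with a rank of 55 for Abcg5. The distance to the nearest member was largest for Slco1a1, whose nearest was Abcb11 at 0.43 with a rank of 501. Slco1a4 and Slco1b2 were each other's nearest member at 0.32, with ranks of 4039 and 7941. For Abcg8 and Abcb11, the members with the widest range over arrays, the 5 named genes most alike were chosen by a fixed rule. For Abcg8 they were Ppp6r1, Utp4, Ecm1, Ube3b and Cpox, at distances of 0.046 to 0.064. For Abcb11 they were Usp9x, Gtf2ird1, Eif5b, Smc3 and Nemf, at 0.059 to 0.083. Usp9x, for instance, read 7.93, 6.78 and 7.59 in vehicle livers and 8.08, 7.48 and 6.51 in Vascepa livers, with the same 2 highest and the same 2 lowest arrays as Abcb11.

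Slco1a1 and Slco1a4 were also read beside genes with a known sex bias in mouse liver. Among 15 tested male-biased genes 13 were higher in Vascepa livers, beside 39.9% of all genes, and 2 had an unadjusted p under 0.05, beside 2.68% of all genes, with a median difference of 0.21. All 9 tested female-biased genes were lower, beside 60.1% of all genes, 3 of them at an unadjusted p under 0.05, with a median of −0.67. The groups did not overlap in 0 of the male-biased and 3 of the female-biased genes, beside 8.24% of all genes, and 0 in either list passed the adjusted threshold. Without Vascepa replicate 3 the medians were 0.72 over the male-biased and −0.70 over the female-biased genes. Both lists were written with earlier results of these data known, so their direction is no independent evidence. Mup21, a major urinary protein gene, read 6.31, 5.84 and 5.75 in vehicle livers and 6.94, 6.93 and 6.12 in Vascepa livers. Hsd3b5, a steroid dehydrogenase of male liver, lay 2.23 and 2.42 above its vehicle mean on Vascepa replicates 1 and 2 and −0.15 from it on replicate 3. Slco1a1 lay 1.09, 1.08 and −0.11 from its vehicle mean on the same arrays, so the 2 genes were high on the same pair of arrays and at the vehicle level on the third. Relative to vehicle, the median of the 15 male-biased genes was 0.97, 0.56 and −0.73 on Vascepa replicates 1, 2 and 3. The list as a whole thus lay below the vehicle level on replicate 3, unlike these 2 genes. Slco1a4 lay −0.40, −0.35 and −0.22 from its vehicle mean in Vascepa livers, and −0.38 on vehicle replicate 2. Abcd2, which brings long fatty acids into peroxisomes, and Cyp2b13, a cytochrome P450, were lower on all 3 Vascepa arrays than on any vehicle array, with differences of −1.39 ± 0.23 and −1.87 ± 0.32 (SE, limma adjusted p = 0.976 for each). Cyp2b13 passed under 3 of 17 alternative settings, at −2.10 with either small nucleolar RNA covariate (limma adjusted p = 0.0181 over 97 probes and 0.0306 over 68) and at −1.29 with array weights (limma adjusted p = 0.00244). Abcd2, Mup21 and Hsd3b5 passed only with array weights among 18 settings, at −1.46, 1.07 and 2.48. Estimation of these weights did not converge, and with them 4100 of all 13493 genes passed, so a pass under this setting was common.

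**Figure D4:**
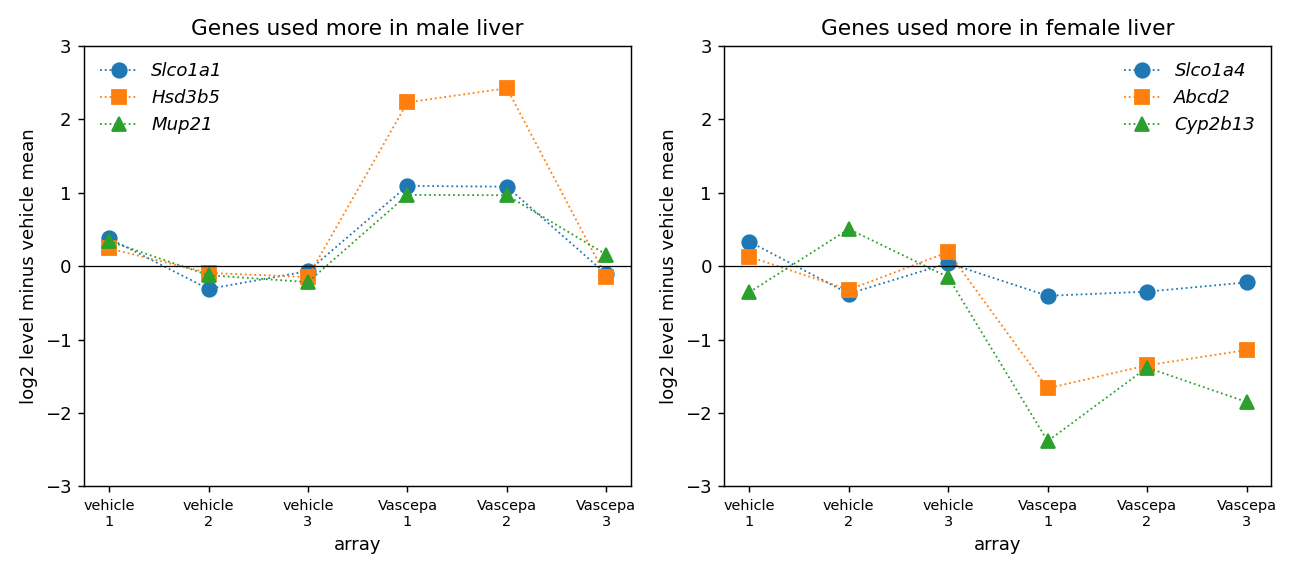
Log2 level minus the vehicle mean, by array, of Slco1a1 with Hsd3b5 and Mup21 (left) and of Slco1a4 with Abcd2 and Cyp2b13 (right), with dotted lines only joining the points of a gene. The 3 genes on the left are high on Vascepa replicates 1 and 2 and close to 0 on replicate 3. The median of all 15 tested male-biased genes, not shown, was −0.73 on replicate 3. On all 3 Vascepa arrays Abcd2 and Cyp2b13 lie lower than Slco1a4, which is lowest at −0.40.

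Regulators of the transporters included no gene that passed. Of 14 listed genes 12 were tested, 9 were lower, beside 60.1% of all genes, and the median was −0.26. Relative to vehicle, the median of the list was 0.27 on Vascepa replicate 1, −0.26 on replicate 2 and −0.74 on replicate 3. Without replicate 3 the list had 6 genes lower and 6 higher, beside 53.1% of all genes lower. Nr1h4, the bile acid receptor FXR, differed by 0.072 ± 0.19 and Nr0b2, the corepressor SHP that it induces, by −0.31 ± 0.36 (SE, limma). Nr1i2, the xenobiotic receptor PXR, read 7.04, 7.18 and 7.02 in vehicle livers and 6.60, 6.54 and 5.96 in Vascepa livers. Its groups did not overlap, which held for 1 of the 12 genes, near the 8.24% of all genes. Its difference of −0.71 ± 0.22 had an unadjusted p of 0.0118 and an adjusted p of 0.976 by limma. Onecut1, a hepatocyte transcription factor, differed by 0.85 ± 0.64, from 4.69, 5.22 and 7.34 on the vehicle arrays to 7.19, 6.47 and 6.15 in Vascepa livers, where vehicle replicate 3 was the highest of all.

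Other transporters of the hepatocyte membrane included no gene that passed. Of 20 listed genes 14 were tested, and 11 were lower and 3 higher, beside 60.1% of all genes lower. The median was −0.25, beside −0.063 over all genes tested. Without Vascepa replicate 3, 6 were lower and 8 higher, beside 53.1% of all genes lower, with a median of 0.031. Slc47a1, the canalicular exporter of organic cations MATE1, read 7.21, 7.28 and 7.34 in vehicle livers and 6.94, 6.79 and 6.04 in Vascepa livers. Its groups did not overlap, which held for 1 of the 14 genes, near the 8.24% of all genes. Its difference of −0.69 ± 0.26 had an unadjusted p of 0.0271 and an adjusted p of 0.976 by limma. The difference was −0.42 without Vascepa replicate 3. Slc10a2, the bile acid carrier of ileum and bile ducts, differed by −0.47 ± 0.25 and Abcc3, a basolateral exporter that returns conjugates to blood, by −0.68 ± 0.45. Abcc3 read 8.25, 7.64 and 7.85 in vehicle livers and 8.06, 7.47 and 6.16 in Vascepa livers, with Vascepa replicate 3 the lowest. Its difference was −0.15 without that array, −1.10 without Vascepa replicate 1 and −0.26 with the planned small nucleolar RNA covariate, and that of Slc10a2 was −0.25 without Vascepa replicate 2. Abcc4, another basolateral exporter, had a mean of 2.22, under the filter, and was not tested, and Slc51b was not analysed here. Of 15 genes of phospholipid flippases and of the placing of transporters in the membrane, 12 were tested and 0 passed. Of these, 7 were lower and 5 higher, near the 60.1% of all genes lower, and the median was −0.075, beside −0.063. Without Vascepa replicate 3, 3 were lower and 9 higher, beside 53.1% of all genes lower, with a median of 0.15. Atp8b1, the canalicular flippase, read 7.67, 6.66 and 7.42 in vehicle livers and 8.08, 7.14 and 5.91 in Vascepa livers, the same highest and lowest array as Abcb11, and differed by −0.21 ± 0.52. Ezr, which links membrane proteins to actin, and Stx3, an apical fusion protein, differed by 0.29 ± 0.21 and 0.23 ± 0.18 (SE, limma adjusted p = 0.976 for each).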

How the data were processed

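Expression was measured on 6 arrays of mouse liver RNA, 3 from vehicle and 3 from Vascepa mice on high-fat diet. The authors deposited log2 values, 1 per probe (transcript cluster) and array, made with Affymetrix Expression Console and RMA per the submitters' processing notes, which name no version. The method assumes like distributions on all arrays and compresses differences between dim probes. Scan dates and slides were not known, so batches were not tested, and the number of arrays limits the precision.

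Of 41345 probes, 23521 had 1 symbol in the platform annotation, 1814 several and 16010 none. Of the single-symbol probes, 23328 were matched by gene ID (RefSeq, GRCm38.p6) and took the symbol given there, whether or not it had changed. Single-symbol probes were kept where their mean reached the overall probe median (2.65), and a gene took its brightest probe, leaving 13493 genes. No member had a several-symbol probe. The test was limma 3.58.1 in R 4.3.3 on the deposited log2 values with no covariate, Benjamini-Hochberg adjusted over all genes, called under 0.05. Differences are Vascepa minus vehicle with limma's moderated SE and 95% interval. In 20 simulated sets of this comparison with 13493 genes, normal noise was drawn independently for each gene and array. Of genes changed by 1 log2 unit 26.6% were recovered, and of those changed by 2 units 78.6%, with 4.23% false calls. Noise shared by the genes of an array was not simulated, so these rates may not hold for the real arrays. The recovery first asked for at 2 log2 units was higher and was not reached. The criterion was therefore lowered and the fit left as it was. All members were named, with the 2 genes of smallest p in each pathway list and 6 pathway genes set by name. The same rule was applied to the sex-biased lists and to the hepatocyte, bile duct and Kupffer cell markers. It was not carried out for the other marker lists. Members and lists were chosen with earlier results of these data known. Motif positions and promoters shown were chosen after the matches were seen. Alternatives were scaling, filter, probe rule, prior, array weights, small nucleolar RNA level, replicate block and leaving out arrays, and 3 of the 18 were added after seeing the data.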

Additional observations from a re-analysis of the deposited data

How the results depend on the processing

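Over all genes, 0 passed in the analysis reported, and 362 had an unadjusted p under 0.05. Weighting arrays, with 39.5 for Vascepa replicate 2 and no more than 2.33 for any other, called 4100 of 13493 genes. Estimation of the weights stopped before it converged. Among the genes called were Slco1a1, Slco1a4 and Slco2b1, at 1.10, −0.38 and −0.47 (limma adjusted p = 0.00252, 0.0256 and 0.0307). With so many genes called, a pass under this setting did not set these members apart from all genes. The planned small nucleolar RNA covariate, over 97 probes, gave 3 genes, and the one over the 68 probes that passed the filter gave 2, no member among either. The other settings and the removal of single arrays gave 0. The unadjusted count was 757 of 22180 genes with no filter and 106 of 7211 with the filter at the 75th percentile. Of 13493 genes, it was 809 and 818 with these covariates. It was between 141 and 2018 without single arrays, the latter without Vascepa replicate 1. The median of the uptake genes was −0.041 and −0.050 with the covariates and ran from −0.35 to 0.065 without single arrays, and that of the export genes from −0.51 to 0.23.

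Signs of members that did not pass turned as follows. Abcb11 was 0.059 with arrays centred on the genes tested and 0.056 with array weights. With the planned covariate Abcb11 was 0.38, Abcb4 0.23, Abcc2 0.23 and Abcg8 0.0015, and with that of 68 probes Abcb11 was 0.38, Abcb4 0.22 and Abcc2 0.23. Without single arrays the range was −0.40 to 0.39 in Abcb11, −0.51 to 0.24 in Abcb4, −0.47 to 0.23 in Abcc2, −0.51 to 0.054 in Abcg5, −0.68 to 0.13 in Abcg8 and −0.62 to 0.065 in Slc10a1. Without both vehicle replicate 2 and Vascepa replicate 3, chosen after seeing the data, the uptake median was 0.036, Slc10a1 0.036, Abcb11 0.067, Abcb4 0.047, Abcg5 0.082 and Abcg8 0.13. The causes were not tested. Slco1a1, Slco1a4, Slco1b2 and Slco2b1 kept their sign under all 18 settings. Centring moved the median of all genes from −0.063 to −0.14 over all probes, as planned, and to 0.037 over the genes tested. The centring on the genes tested and the covariate of 68 probes were added after the planned versions had been seen. Of the regulators and other transporters named, Nr1i2, Slc47a1, Slc10a2 and Abcc3 kept their sign under all 18 settings. Atp8b1 changed it under 5, Nr1h4 under 3, Nr0b2 under 2, and Onecut1 and Ezr under 1 each. Nr1i2, Slc47a1 and Slc10a2 passed under 1 setting, array weights, which called 4100 of 13493 genes.

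The replicate numbers were not taken as pairs. Deviations of same-numbered arrays from their group means correlated across genes at 0.61, 0.11 and −0.13 for numbers 1, 2 and 3. With the number as a replicate block, 0 genes passed and 438 had an unadjusted p under 0.05, the uptake median was −0.32 and the export median −0.14, and no call changed. Signal limits the dim probe of Slco2b1 and the genes under the filter.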
